A study of Mus musculus with 20 samples.

Results

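Cytosolic ribosomal protein genes encode the proteins of the small (40S) and large (60S) subunits of the ribosome that translates nuclear mRNA. The members were every gene of the deposited table whose mouse symbol was Rpl or Rps followed by a number, with an a, x, l, al or l1 ending allowed, or was Rplp0, Rplp1, Rplp2 or Rpsa. Names with a -ps ending, which usually mark pseudogenes, were left out, although the annotation calls Rpl10-ps3 and Rps12-ps3 protein-coding. This rule took 86 of 39179 genes, 33 of the small subunit and 53 of the large subunit. Fau, Rack1 and Rps3a1, which also encode ribosomal proteins, have other names and were not members. The annotation calls 3 members, Rpl6l, Rps12l1 and Rps4l, pseudogenes although their names do not say so.

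A cell needs 1 copy of nearly every ribosomal protein in each ribosome, so these mRNAs are made in similar amounts and are among the most abundant of a cell. Their mRNAs begin with a run of pyrimidines, the 5′ terminal oligopyrimidine (TOP) motif, through which mTORC1 signalling sets their translation. MYC is a known activator of the transcription of ribosomal protein genes. Growing lymphocytes make more ribosomes than resting ones.

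RNA was sequenced from cells of C57BL/6 mice in 5 groups. The control group held 5 libraries of thymic CD4 single-positive (CD4SP) cells, sorted as CD4+TCRb+CD8-, which the labels call wild type and the study describes as Id3+/- or littermate controls. The second group held 3 libraries of the same sort from mice labelled Id3 KO, a germline deletion. A further 3 libraries came from CD4SP cells labelled Id2_Id3_dKO, in which the study deleted floxed Id2 and Id3 with a Cre driven by IL7R and so throughout the T lineage (called dKO here). This Cre is active from lymphoid progenitors on, so other lymphocytes of these mice lack both genes too. Mice of the 3 thymic groups were 8 weeks old. The study found lymphomas in aged mice, and no exact age was tied here to the animals of the lymphoma and TFH libraries. The TFH group held 3 libraries of follicular helper T cells, sorted from the spleen as CD4+TCRb+CD44highCXCR5+, of animals labelled wild type that had received sheep red blood cells as antigen. The lymphoma group held 6 libraries of sorted CD3+TCRb+ tumour cells that the labels also call Id2_Id3_dKO, 4 of lymph node, 1 of spleen and 1 of thymus, of which 4 were sorted on CD4 and 2 on CD8. The study saw lymphomas with several Cre drivers, and the labels do not give the driver of these 6. The lymphoma mean therefore pools tissues and lineages, and tissue, sort and disease cannot be told apart in it.

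The table gives 1 value per gene and group, the authors' mean of DESeq-normalized RSEM counts, so no mean carries an error and no difference between groups was tested. Every comparison below is a ratio of 2 such means, on the log2 scale after 1 normalized count was added to each. A gene was counted as higher or lower when the ratio was at least 1.5-fold, among the 15536 genes with a mean of at least 10 in 1 group or more. Of the 86 members, 84 passed that filter. Rpl10l, at no more than 1.499 normalized counts in any group, and the row of Rps27, at 0 to 8.27, did not. Depths of the libraries are unknown. The 5 columns sum to between 13386015 and 15497262 normalized counts.

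The labels were checked on the deleted genes. Id2 averaged 2293 normalized counts in control and 6.82 in dKO cells, and Id3 averaged 1991 in control and 880 in dKO cells. In the libraries labelled Id3-/- Id3 averaged 2650, above control, so that group is called by its label throughout. Cxcr5, the receptor used to sort TFH cells, averaged 44.6 in control and 9567 in TFH cells. All 7 T cell markers looked at were present in every group. Their summed level was 79330 normalized counts in control, 72746 in TFH, 68388 in the libraries labelled Id3-/-, 69744 in dKO and 45823 in lymphoma. Markers of other cells differed between groups too. The CD8 genes Cd8a and Cd8b1 summed to 716 in control, 202 in TFH, 425 in the libraries labelled Id3-/-, 231 in dKO and 1849 in lymphoma, where Cd8a stood at 1388 against 128 in control. All 6 B cell markers were at least 1.5-fold higher in TFH than in control cells, and their summed level was 1891 in control, 12582 in TFH, 4569 in the libraries labelled Id3-/-, 7931 in dKO and 12123 in lymphoma, most of it Ighm. In lymphoma 4 of the 6 were at least 1.5-fold higher than in control, with Cd79b at 455 against 22.0. Ms4a1 stayed under 10 in every group but TFH. The 6 myeloid markers summed to between 133 and 222 in the other groups and to 880 in lymphoma, where all 6 were higher than in control. In TFH cells 5 of the 6 were at least 1.5-fold higher than in control. The other, Itgam, was lower, at 28.9 against 69.4. In dKO cells 2 were higher and 2 lower. In the libraries labelled Id3-/- 2 of the 6 were at least 1.5-fold higher than in control and 3 were lower. Lyz2 stood there at 65.1 against 3.82 in control and Csf1r at 25.9 against 5.86, while S100a8 and S100a9 were listed at 0. Erythroid markers summed to 45.6 in control, 209 in the libraries labelled Id3-/- and 394 in lymphoma, with 4 of 4 above the filter higher in both, and to under 20 in TFH and dKO cells. Of 6 stromal markers Epcam and Col1a1 passed the filter, and both were higher in the libraries labelled Id3-/-, in dKO cells and in lymphoma. List sums were 109 in control, 104 in TFH, 203 in the libraries labelled Id3-/-, 988 in dKO and 5464 in lymphoma. The other 4 stromal markers stayed under 10 in every group. Fewer cells of a type and less RNA per cell cannot be told apart in bulk samples, and the part of these other cells in the ratios below was not tested.

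Sequence decides how far a member's row can be read, so sequences come first. Ribosomal protein genes have left many processed pseudogenes, intron-free copies made by reverse transcription of the mRNA, which mostly have no promoter of their own. The coding sequences of members were searched against the annotated mouse transcripts of genes in the deposited table. The search found 398 further genes with a match of at least 95% identity over at least 80% of a member's coding sequence. They fell in 72 of 84 families, once Rps12l1 and Rpl6l were placed with Rps12 and Rpl6. Of the 398 copies, 65 had a mean of at least 100 normalized counts in some group. Reads that lie within identical stretches cannot be assigned to a member or its copy by sequence. The first 60 coding bases of the following pairs show the case, with bases that differ in capitals (GENCODE M21, mm10). They were chosen after their values were seen, because the row of the member and that of its copy had unlike ratios.
Rps16 (chr7:28350652-28353155, plus strand): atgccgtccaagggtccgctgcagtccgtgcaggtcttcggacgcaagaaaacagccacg
Rps16-ps2 (chr5:129128077-129128517, minus strand): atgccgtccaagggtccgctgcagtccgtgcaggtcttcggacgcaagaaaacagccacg
Rps6 (chr4:86854660-86857412, minus strand): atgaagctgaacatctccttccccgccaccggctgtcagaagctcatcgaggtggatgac
Rps6-ps4 (chr2:75191073-75191822, minus strand): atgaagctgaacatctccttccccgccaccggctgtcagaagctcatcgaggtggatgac
Rps7 (chr12:28630854-28635953, minus strand): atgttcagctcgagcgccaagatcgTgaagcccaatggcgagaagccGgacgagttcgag
Gm6472 (chrX:152909505-152910155, minus strand): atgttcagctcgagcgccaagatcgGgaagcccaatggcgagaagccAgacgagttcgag
Rps27 (chr3:90212522-90213651, minus strand): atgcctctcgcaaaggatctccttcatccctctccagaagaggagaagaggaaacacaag
Rps27rt (chr9:114982366-114982739, minus strand): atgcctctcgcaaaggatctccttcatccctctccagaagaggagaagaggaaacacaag
Over the whole coding sequence Rps16 and Rps16-ps2 differed at 0 of 438 bases, Rps6 and Rps6-ps4 at 0 of 747, Rps27 and Rps27rt at 0 of 252 and Rps7 and Gm6472 at 3 of 582. Rpl5 and Gm15500 differed at 0 of 891 bases and Rpl34 and Rpl34-ps1 at 2 of 351. The row of Rpl34 and that of Rpl34-ps1 can be told apart at 1 base of the stretch from coding base 102 to 161, shown because it holds a difference.
Rpl34 (chr3:130726831-130730398, minus strand): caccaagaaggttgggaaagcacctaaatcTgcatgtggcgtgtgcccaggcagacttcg
Rpl34-ps1 (chr6:71124610-71124963, plus strand): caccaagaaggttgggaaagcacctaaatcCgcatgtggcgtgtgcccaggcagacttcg

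These copies held a large part of the counts. Own rows of the members held between 69.7% and 71.6% of the counts summed over members and copies in the 5 groups. In control cells the own row held under 50% in 22 of 84 families. Rps6, the kinase target whose phosphorylation is read as a sign of mTORC1 activity, held 1046 normalized counts in its own row in control and 18364 in Rps6-ps4. Rpl5, a binding partner of 5S rRNA, held 378 against 23967 in Gm15500, so its own row was 1.55% of its family. In 43 of 84 families the own row held over 95% in every group. Below, a member is therefore given both ways, by its own row and by the sum of that row and its copies.

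The levels themselves became more even once copies were summed. Per kilobase of coding sequence and in control cells, the own rows of 76 members, second gene copies left out, ran from 32.8 for Rps27 to 172027 for Rpl41, with a median of 21837 normalized counts, and 47 lay within 2-fold of the median. With copies summed the lowest was Rpl7a at 8664, the median was 29204, and 67 of 76 lay within 2-fold of it. Own rows at less than 1 part in 10 of the median numbered 5 in control and 8 in dKO cells, and 0 with copies summed in each of the 5 groups. Rpl41, the shortest member with 75 coding bases, stayed the highest per kilobase of coding sequence in every group. Reads can also come from untranslated parts, and their part in this level was not tested.

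The members together took a larger share of all normalized counts in dKO and lymphoma cells than in control cells. By own rows the share was 6.14% in control, 5.11% in TFH, 7.26% in the libraries labelled Id3-/-, 9.85% in dKO and 9.52% in lymphoma. With copies summed it was 8.67%, 7.17%, 10.1%, 14.1% and 13.4%, or 0.83, 1.17, 1.63 and 1.55 times the control share in the last 4 groups. Both ways gave the same order of the 5 groups. The sum of Rps rows was 0.68 of the sum of Rpl rows in control and 0.64 to 0.70 in the other groups.

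**Figure D1:**
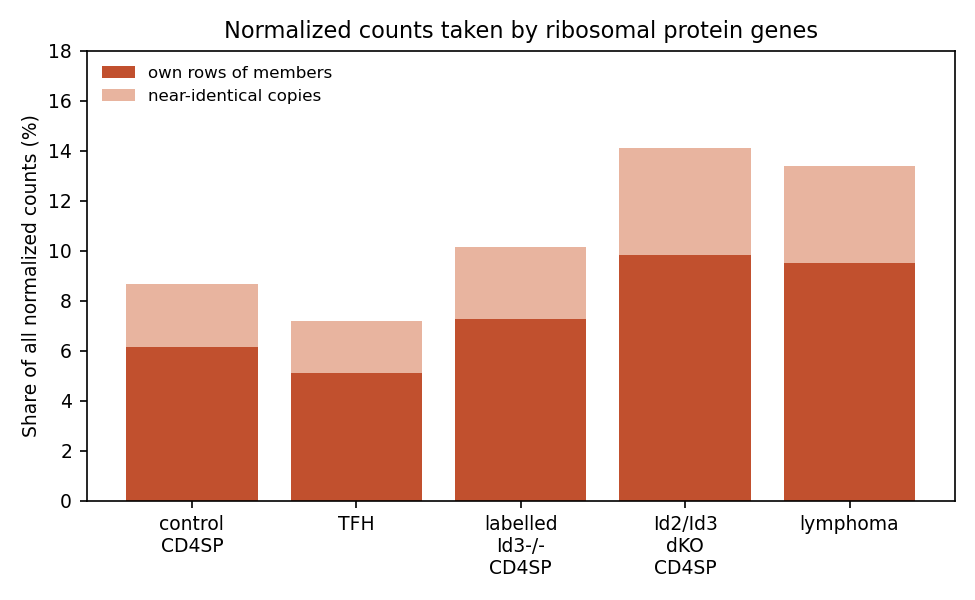
Share of all normalized counts (%, y axis) in each of the 5 groups (x axis), from 1 deposited mean per gene and group, so there are no error bars. Dark bars are the own rows of the 86 members and light bars the near-identical copies added to them. The summed bars reach 8.67% in control, 7.17% in TFH and 14.1% in dKO cells.

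The groups ordered most members alike. Among the 84 members above the filter the highest mean was that of dKO cells for 43 members and of lymphoma for 38, and the lowest that of TFH cells for 72. Over all 15536 genes dKO cells were highest for 19.2%, lymphoma for 30.4%, and TFH cells lowest for 23.3%. The dKO mean was above the lymphoma mean for 45 of 84 members, beside 48.0% of all genes. The 4 comparisons with control below share its mean.

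**Figure D2:**
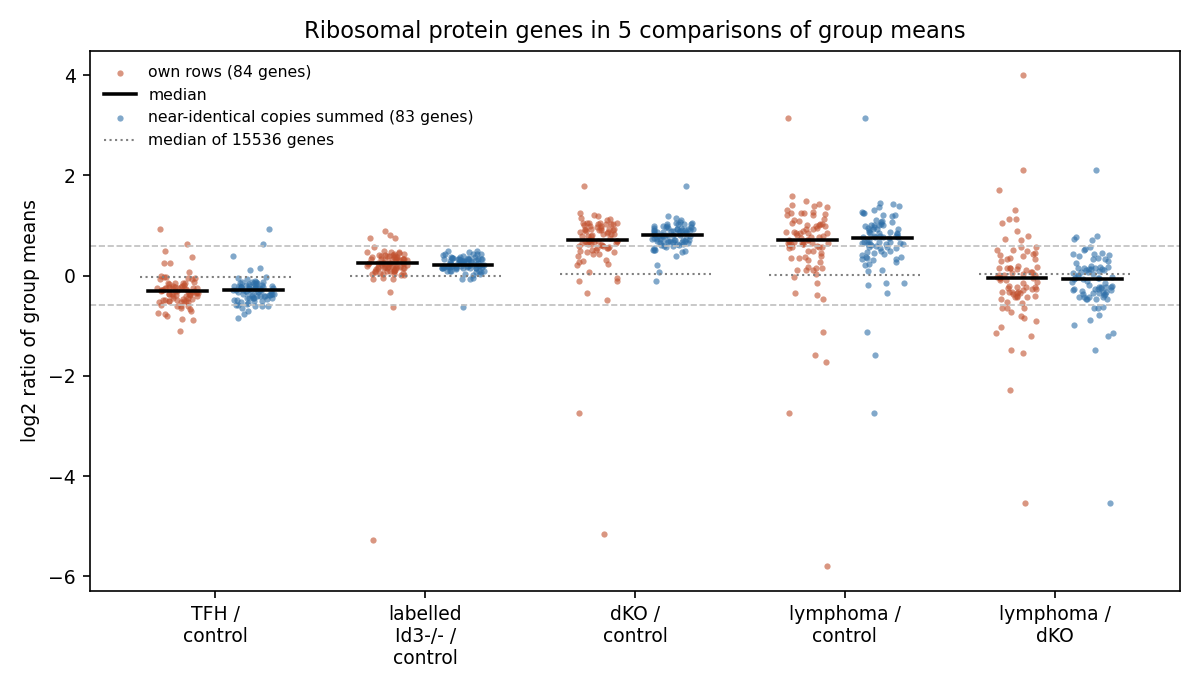
Log2 ratio of group means (y axis) of each member in 5 comparisons (x axis). Red points are own rows of 84 members, blue points are sums of member and copies for 83, black lines are their medians, dotted lines the median of 15536 genes, and dashed lines the 1.5-fold limits. The lowest red point in 4 of the 5 comparisons is off the cloud, and in lymphoma it is Rps12, listed at 0 there, whose place depends on the normalized count added. The blue clouds are narrower, around medians of -0.29, 0.22, 0.80, 0.74 and -0.06, with Rpl39l, Rpl3l and Rps4l outside them.

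In dKO CD4SP cells most ribosomal protein genes were higher than in control CD4SP cells. By own rows 59 of 84 members (70.2%) were at least 1.5-fold higher, beside 23.6% of all genes, and 2 were lower (Rps12 and Rps16, both with abundant copies), beside 19.0%. The median log2 ratio of the members was 0.72, against 0.02 over all genes. With copies summed 72 of 83 were higher, beside 23.3% of all genes in that table, 0 were lower, beside 19.1%, and the median was 0.80. The middle 50% of the sums with at least 100 normalized counts lay between 0.67 and 0.92, against -0.39 to 0.43 for other genes of at least 100. Among the 43 members whose own row held over 95% of the family, 36 were higher, 0 were lower and the median was 0.80. At least 2-fold higher by own rows were 17 of 84 members, beside 14.1% of all genes.

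Among members with at least 100 normalized counts in the higher group, the largest ratio by own rows in dKO cells was that of Rps15a, a small-subunit protein. Its row held 9164 normalized counts in control, 12926 in TFH, 9201 in the libraries labelled Id3-/-, 21793 in dKO and 15076 in lymphoma. Its dKO mean was 2.38 times the control mean by own row and 1.88 times with copies summed, since the row Rps15a-ps5 went from 2418 in control to 97.4 in dKO cells. Rpl38, a large-subunit protein whose loss in mice alters the translation of Hox mRNAs, was at 3763, 3410, 4442, 8550 and 6840 in the same order of groups, with dKO log2 ratios of 1.18 by own row and 1.15 with copies. Rpl28 had the largest log2 ratio with copies summed of these abundant members, at 1.19, from 12071 in control to 27476 in dKO cells. Rpl35 and Rpl23a, both at the exit tunnel, had own-row log2 ratios of 1.22 and 1.12. Rps18, a protein of the head of the small subunit, went from 10272 in control to 22122 in dKO cells, a log2 ratio of 1.11 both ways. With copies summed the dKO mean was the highest of the 5 for Rps15a, Rpl38, Rpl28 and Rps18.

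The smallest ratios in dKO cells by own rows were those of members with copies. The row of Rps16 held 3612 normalized counts in control, 4326 in TFH, 6730 in the libraries labelled Id3-/-, 540 in dKO and 8639 in lymphoma, a log2 ratio of -2.74 in dKO cells. Rps16-ps2, identical in coding sequence, held 14973, 12006, 15565, 29816 and 16212. Their sum with the lesser copies was 18615 in control and 30383 in dKO cells, a log2 ratio of 0.71 of the opposite sign. Rpl5 was at -0.48 by own row and 0.52 with Gm15500, Rpl12, a protein near the base of the stalk, at -0.34 and 0.60, Rpl31 at -0.10 and 0.64, and Rpl34 at -0.04 and 0.78. Rps12 averaged 54.5 in control and 28.9 in TFH cells, under 1 in the libraries labelled Id3-/- and dKO, and was listed at 0 in lymphoma, while its family summed to 10641 in control and 16785 in dKO cells. The own row of Rps27 was listed at 0 in TFH and dKO cells although every cell makes this protein, and Rps27rt held 10587 in control and 18472 in dKO cells.

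**Figure D3:**
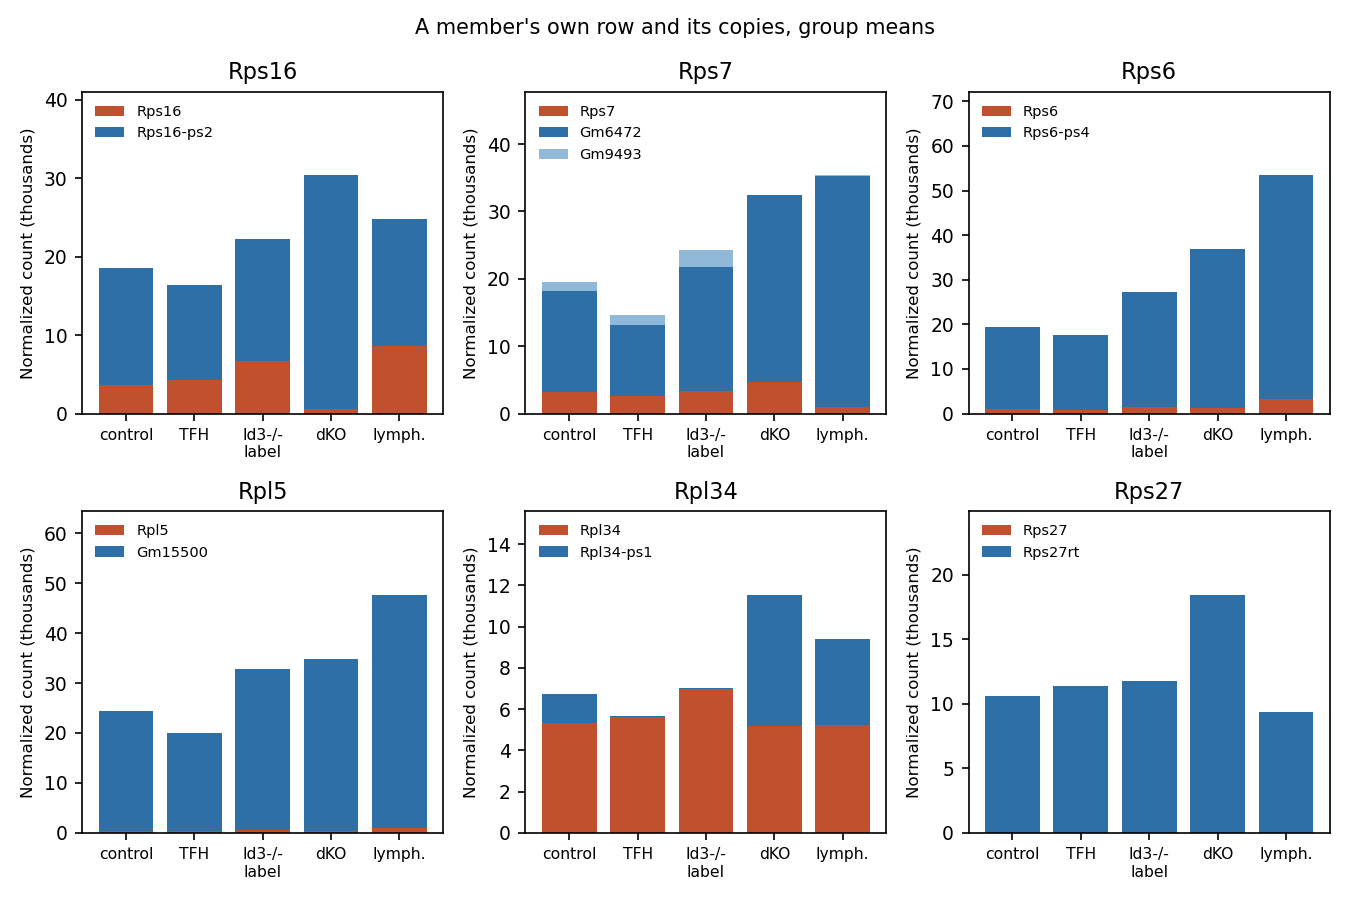
Normalized counts (y axes, in units of 1000) of 6 members (red) and of their copies with at least 100 normalized counts (blues) in the 5 groups (x axes), as stacked bars of group means with no error. In the Rps16 panel the red part is 540 in dKO cells while the whole bar is taller than in control, and in the Rps7 panel the red part is 949 in lymphoma.

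With copies summed, the 5 smallest log2 ratios in dKO cells were taken among members of at least 100. They were those of Rpl22l1 (0.07), Rpl7l1 (0.20), Rpl30 (0.39), Rps4x (0.46) and Rpl7 (0.49). Rpl22l1 and Rpl7l1 are second gene copies, Rpl30 a large-subunit protein, Rps4x the X-linked form of S4, and Rpl7 the parent gene of Rpl7l1.

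In lymphoma the members were also higher than in control, with a wider spread. By own rows 54 of 84 (64.3%) were at least 1.5-fold higher, beside 28.2% of all genes, and 5 were lower, beside 26.5%. The median log2 ratio was 0.71, against 0.02 over all genes. Scaling the columns to equal sums took the median of all genes to -0.185 and that of the members to 0.50, and left 36 of 84 members at least 1.5-fold higher, beside 22.3% of all genes. With copies summed 55 of 83 were higher, beside 28.2%, 3 were lower, beside 26.5%, and the median was 0.74. By own rows the lower members were Rps7, Rps12, Rpl22l1, Rpl39l and Rps4l, of which the last 3 stayed lower with copies summed. The SD of the sums over members of at least 100 was 0.44 on the log2 scale in lymphoma, 0.20 in dKO and TFH cells and 0.13 in the libraries labelled Id3-/-. The T cell, CD8, B cell, myeloid, erythroid and stromal markers differed in this group as given above, and their part in these ratios was not tested.

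Rps6 had the largest ratio in lymphoma among members of at least 100. Its own row held 1046 normalized counts in control, 885 in TFH, 1397 in the libraries labelled Id3-/-, 1285 in dKO and 3165 in lymphoma, a log2 ratio of 1.60. Its sum with copies was 19495, 17636, 27438, 36929 and 53517, a log2 ratio of 1.46. Rpsa, a small-subunit protein that is also known as the 67-kDa laminin receptor precursor, held 22758 in control, 29567 in TFH, 31614 in the libraries labelled Id3-/-, 44123 in dKO and 59500 in lymphoma, a log2 ratio of 1.39 both ways. Rpl4, which lines the exit tunnel of the large subunit, had no copy and held 26745, 26342, 35879, 46405 and 69416, a log2 ratio of 1.38. Rpl8, also without a copy, was at 1.31 (21347 in control, 53024 in lymphoma). Rps12 with copies was at 1.42, its annotated pseudogene Rps12l1 at 1.48, and Rpl13, by its own row, at 1.43 but at 0.79 with copies. Rpl27 was at 1.42 by its own row and 0.85 with copies.

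Some members were lower in lymphoma than in control. The row of Rps7 held 3144 normalized counts in control, 4634 in dKO and 949 in lymphoma, a log2 ratio of -1.73. Gm6472 held 15072, 27779 and 34381 in the same order, and the family sum had a log2 ratio of 0.85 in lymphoma. Rpl22l1 had no abundant copy. It averaged 1561 in control, 1143 in TFH, 1501 in the libraries labelled Id3-/-, 1650 in dKO and 715 in lymphoma, a log2 ratio of -1.13, whereas its parent Rpl22, an RNA-binding protein needed by αβ T cell progenitors, averaged 6478, 5507, 7269, 11744 and 10014 (0.63). With copies summed, the next smallest log2 ratios among members of at least 100 were those of Rps21 (-0.34), Rps27 (-0.18), Rps29 (-0.15) and Rplp1 (-0.14), all of which had positive log2 ratios in dKO cells. By its own row Rps29 was at -0.47. Rps21 had no copy and held 9018 in control, 15817 in dKO and 7107 in lymphoma.

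Set directly against dKO cells, lymphoma showed no common shift. By own rows 11 of 84 members were at least 1.5-fold higher, beside 20.1% of all genes, 14 were lower, beside 22.3%, and the median log2 ratio was -0.05. The extremes by own rows were mostly members with copies. Rps16 (4.00), Rpl5 (1.71), Rps6 (1.30), Rpl27 (1.14) and Rpl31 (1.12) were at the top, and Rps7 (-2.29), Rpl22l1 (-1.21), Rps21 (-1.15), Rps27a (-1.02) and Rps29 (-0.90) at the bottom. With copies summed 5 of 83 were higher, beside 20.1%, 10 were lower, beside 21.9%, and the median was -0.06. Among members of at least 100 the sums with the largest log2 ratios were Rps4x (0.79), Rps12 (0.76), Rpl7 (0.72), Rpl8 (0.71) and Rpl4 (0.58). The smallest were Rpl22l1 (-1.20), Rps21 (-1.15), Rps27 (-0.98), Rps29 (-0.88) and Rplp2 (-0.78).

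The members low in lymphoma had short coding sequences. Over 82 members with a coding length and copies summed, Spearman's rho between coding length and the log2 ratio of lymphoma to control was 0.62, and for lymphoma to dKO 0.67, as a description across genes of the same 2 columns. The same rho was -0.13 for dKO to control, 0.28 for TFH to control and 0.51 for the libraries labelled Id3-/- to control. These values include Rpl39l (153 coding bases) and Rpl3l (1221), which had at most 24.98 and 16.8 normalized counts in any group. Members under 400 coding bases (29 genes) had a median log2 ratio of 0.49 in lymphoma and 0.80 in dKO cells, and those of at least 600 (23 genes) 1.08 and 0.84. Among 6273 other genes of up to 1300 coding bases rho was 0.03 for lymphoma to control and 0.12 for lymphoma to dKO. For these genes the medians of lymphoma to dKO were -0.25 under 400 bases and 0.07 from 600 bases. Fragment size and RNA quality per library are not in the data used, and their part was not tested.

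**Figure D4:**
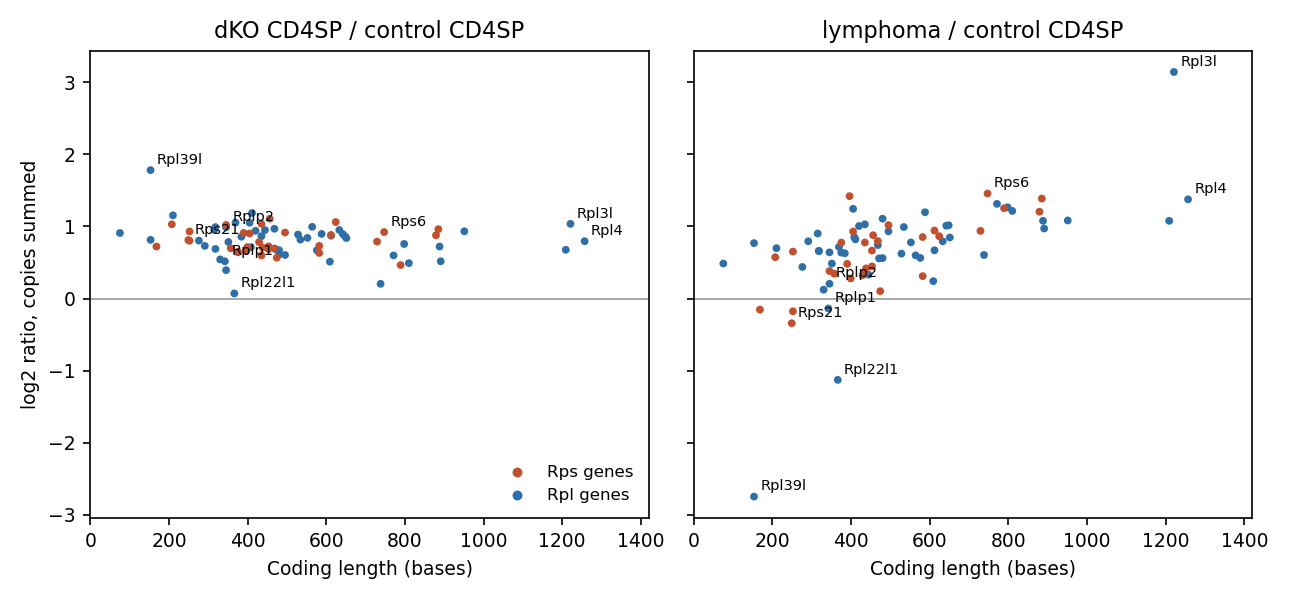
Log2 ratio with copies summed (y axis) against coding length in bases (x axis) for protein-coding members in dKO CD4SP (left) and lymphoma (right) cells, both over control. Red points are Rps and blue points Rpl genes. In lymphoma most points climb from Rps21 at -0.34 and Rplp1 at -0.14 to Rps6 at 1.46 and Rpl4 at 1.38. In dKO cells most lie flat around 0.80. Outside these clouds in lymphoma lie Rpl39l (-2.75), Rpl22l1 (-1.13) and Rpl3l (3.14). Rpl39l stands at 1.78 and Rpl22l1 at 0.07 in dKO cells.

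In the libraries labelled Id3-/- the members were slightly higher than in control. By own rows 4 of 84 were at least 1.5-fold higher (Rps16, Rpl3, Rpl13 and Rpl6l), beside 9.94% of all genes, 2 were lower (Rps12 and Rpl3l), beside 10.4%, and the median log2 ratio was 0.25, against -0.01 over all genes. Ratios above 0 were found for 78 of 84 members, beside 7558 of 15536 genes. With copies summed 0 of 83 were higher, beside 9.65%, 1 was lower, beside 10.4%, and the middle 50% of members of at least 100 lay between 0.16 and 0.33. The rows of Rps16 (0.90), Rpl3, which forms part of the peptidyl transferase centre (0.80), and Rpl13 (0.75) came down to 0.26, 0.33 and 0.44 with copies. Rps23, at the decoding centre, was at 0.56 by its own row. Among the sums Rps6 (0.49), Rpsa (0.46) and Rpl5 (0.43) were also near the top. Rps3, at the mRNA entry and without a copy, held 23803 in control and 33538 in these libraries, a log2 ratio of 0.49. The smallest log2 ratios were those of Rpl35 (-0.34 by its own row, 0.03 with copies), Rps27l (-0.07), Rpl22l1 (-0.06), Rpl41 (-0.04), Rps15a (0.01 by its own row), Rps26 (0.01) and Rplp1 (0.03).

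In TFH cells most members were somewhat lower than in control CD4SP cells. By own rows 13 of 84 were at least 1.5-fold lower, beside 17.7% of all genes, and 2 were higher, beside 18.7%. The lower count is thus a share near that of the whole table (15.5% against 17.7%). The median log2 ratio was -0.32, against -0.02 over all genes, and 77 of 84 ratios were below 0, beside 8069 of 15536 genes. With copies summed 9 of 83 were lower, beside 17.6%, and 2 were higher, beside 18.8%. Both members counted as higher, Rpl3l and Rps4l, had under 26 normalized counts. Rps26, a protein of the mRNA exit channel, held 14708 in control and 8118 in TFH cells, a log2 ratio of -0.86. Rps20 was at -0.77 (20270 and 11866), Rps19, the gene most often mutated in Diamond-Blackfan anaemia, at -0.64, and Rps9 at -0.61. The row of Rps13 was at -1.10, from 107 to 49.4, and its family at -0.21. Rpl10a (-0.80) and Rpl35 (-0.74) were also among the smallest by own rows, and Rpl31 (-0.71) among the sums. The largest log2 ratios by own rows were those of Rps15a (0.50), Rpsa (0.38), Rps16 (0.26), Rpl3 (0.26) and Rpl34 (0.08). With copies summed those of Rps16, Rpl3 and Rpl34 were below 0, Rpsa was at 0.40, Rps15a at 0.15 and Rps27 at 0.11, and Rpl4 (-0.02) and Rps2 (-0.04) came next. The TFH libraries also differ from the control by organ, activation and immunization, which cannot be told apart from the cell type.

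By their place in the ribosome the members showed the same picture with some differences. The median log2 ratio by own rows of 32 Rps members was 0.71 in dKO cells and 0.68 in lymphoma, and that of 52 Rpl members 0.74 and 0.73. The exit-tunnel list (Rpl4, Rpl17, Rpl19, Rpl23a, Rpl26, Rpl31, Rpl35 and Rpl39) had 7 of 8 genes higher in dKO cells and 7 of 8 in lymphoma, and 8 of 8 in each with copies summed, with median log2 sum ratios of 0.85 and 0.77. The mRNA-channel list (Rps2, Rps3, Rps26 and Rps28) had 4 of 4 higher in dKO cells and 3 of 4 in lymphoma by own rows, and 4 and 2 of 4 with copies. Diamond-Blackfan anaemia is an inherited failure of red cell production. Of 9 genes mutated in it, 6 were higher in dKO cells and 4 in lymphoma by own rows, and 7 and 5 with copies. All 9 log2 ratios were below 0 in TFH cells, beside 77 of 84 members and 8069 of 15536 genes by own rows. Over all genes 23.6% were higher in dKO cells and 28.2% in lymphoma.

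The stalk proteins, which recruit elongation factors to the large subunit, differed among themselves. Rplp0, the base of the stalk and the most abundant of all own rows, averaged 42616 normalized counts in control, 32320 in TFH, 57266 in the libraries labelled Id3-/-, 81412 in dKO and 90332 in lymphoma. Rplp1 averaged 28561, 20302, 29131, 40867 and 25960, and Rplp2 12280, 10038, 13625, 24777 and 13797. All 3 had positive log2 ratios in dKO cells (0.93, 0.52 and 1.01), and in lymphoma Rplp0 stood at 1.08 while Rplp1 and Rplp2 stood at -0.14 and 0.17. Rplp1 and Rplp2 are short genes, of 342 and 345 coding bases against 951 for Rplp0.

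Rpl5 and Rpl11 form with 5S rRNA the particle that binds MDM2 and so stabilizes p53 when ribosome assembly fails. With copies summed Rpl5 went from 24385 in control to 34872 in dKO and 47806 in lymphoma (0.52 and 0.97), and Rpl11 from 11975 to 21097 and 23809 (0.82 and 0.99). In TFH cells their log2 ratios were -0.29 and -0.24. The 4 X-linked members, Rpl10, Rpl36a, Rpl39 and Rps4x, had log2 sum ratios of 0.89, 0.99, 0.81 and 0.46 in dKO cells. In lymphoma Rpl10 was at 1.01, Rpl36a at 0.66 and Rpl39 at 0.77, and Rps4x, by its own row, went from 31124 normalized counts in control to 74185.

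Second gene copies are paralogs of a parent gene, and they were measured at a range of levels. The annotation calls Rps4l and Rpl6l, given last, pseudogenes. Rpl7l1 averaged 1199 normalized counts in control and 1823 in lymphoma (0.60), Rpl36al 2424 and 3835 (0.66, beside 4502 and 7096 for Rpl36a), and Rps27l, a p53 target, 474 and 745 (0.65). In dKO cells Rps27l averaged 905 (0.93). Rpl39l, known from the testis, averaged 6.56 in control, 24.98 in dKO and 0.13 in lymphoma, and Rpl3l, known from heart and skeletal muscle, averaged 1.01 in control and 16.8 in lymphoma. Which of the 6 tumours carried the Rpl3l counts cannot be seen from a mean. Rps4l stayed between 3.58 and 25.4 and Rpl6l between 7.53 and 29.8.

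Other genes of translation were compared by lists, whose counts stand beside 23.6% of all genes higher in dKO cells and 28.2% in lymphoma. Elongation factors, listed with the kinase of Eef2, had a median log2 ratio of 0.82 in dKO cells and 1.03 in lymphoma, with 5 of 8 and 8 of 8 at least 1.5-fold higher. Eef1a1, which brings aminoacyl-tRNA to the ribosome, averaged 142221 normalized counts in control, 131079 in TFH, 175640 in the libraries labelled Id3-/-, 198008 in dKO and 264274 in lymphoma. Initiation factors had medians of 0.30 in dKO cells and 0.87 in lymphoma, with 5 and 20 of 29 higher. Ribosome assembly factors, which act in the nucleolus, had medians of 0.35 and 0.95, with 6 and 23 of 28 higher, and chaperones of ribosomal proteins 0.33 and 0.82, with 3 and 8 of 13 (Ncl and Npm1 are on both of the last lists). Mitochondrial ribosomal proteins had medians of 0.30 and 0.44, with 12 and 30 of 77. In dKO cells the counts of the initiation, assembly, chaperone and mitochondrial lists were no larger shares than that of all genes. Set against dKO cells, lymphoma had a median of 0.62 for assembly factors, 0.56 for initiation factors and -0.05 for the members. Whether these lists differ from each other was not tested.

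**Figure D5:**
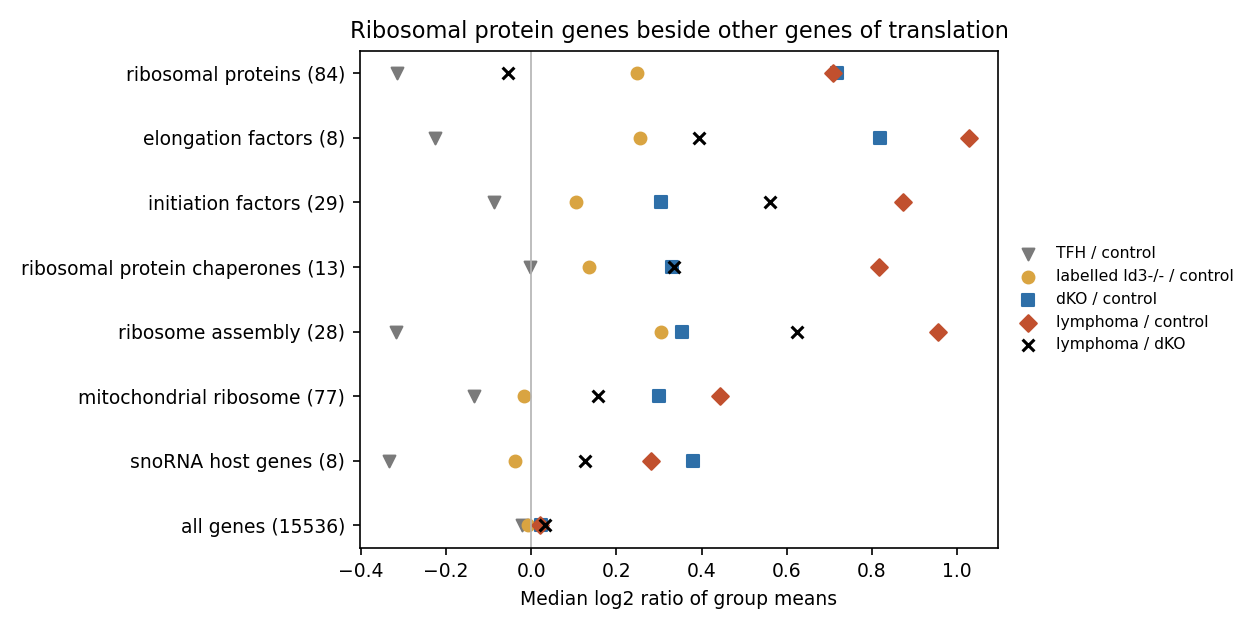
Median log2 ratio of group means (x axis) of 7 gene lists and of all genes (y axis, number of genes above the filter in brackets), by own rows. Symbols mark the 5 comparisons. The ribosomal protein row has dKO and lymphoma at nearly 1 place (0.72 and 0.71), while the assembly and initiation rows have lymphoma far to the right of dKO.

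Genes listed as regulators of TOP mRNAs or ribosomal protein genes, and proliferation genes, were measured in the same columns. The counts of this paragraph stand beside 23.6% of all genes higher in dKO cells and 28.2% in lymphoma. Of 10 regulators above the filter 3 were higher in dKO cells (Myc, Eif4ebp1 and Rptor) and 5 in lymphoma. Their median log2 ratios were 0.15 and 0.55. Myc averaged 1576 normalized counts in control, 626 in TFH, 2627 in the libraries labelled Id3-/-, 3015 in dKO and 4326 in lymphoma. Larp1, which binds the TOP motif, averaged 2962, 2399, 3877, 3172 and 5073, and Mtor 854, 741, 855, 711 and 793. Among proliferation genes 9 of 12 were at least 1.5-fold higher in dKO cells and 10 of 12 in lymphoma, with medians of 0.84 and 1.13. The list of other genes with a TOP motif shares Eef1a1, Eef2, Pabpc1, Eif3e, Eif3f, Eif3h, Eif4b, Npm1 and Nap1l1 with the lists above. Of other genes whose mRNAs carry a TOP motif 9 of 14 were higher in dKO cells and 11 of 14 in lymphoma. Tpt1 was the one with a log2 ratio near 0 in lymphoma (0.06, at 34135 in control and 35692 in lymphoma), and Vim had the lowest ratio in both (-1.32 and -0.74). Gas5, a snoRNA host whose spliced RNA is a TOP RNA without a protein, averaged 4042, 2639, 4245, 5317 and 5101. The part of proliferation or of Myc in the members' ratios was not tested.

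The start sites of members were read from RefSeq promoters (GRCm38.p6), 300 bases with 250 before the start, which matched 63 of 86 members with 75 promoters. A run of at least 5 pyrimidines from the first base was present in 16 of 75 (21.3%), beside 4.44% of 32851 promoters. Such a run with C first, the form of the TOP motif, was present in 13 of 75 (17.3%), beside 2.51% of all promoters. RefSeq starts can lie some bases off the start used in a T cell, so absence here says only that the letters are not at this base. The 5 longest runs with C first are shown from 10 bases before the start, with the run in capitals.
Rpl15 (chr14:18270967-18270996, minus strand): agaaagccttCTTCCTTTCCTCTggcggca
Rpl35 (chr2:39005112-39005141, minus strand): ccgccctttcCTCTTTCTCTCgaaccaggc
Rps10 (chr17:27635225-27635254, minus strand): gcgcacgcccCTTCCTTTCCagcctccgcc
Rps6 (chr4:86857348-86857377, minus strand): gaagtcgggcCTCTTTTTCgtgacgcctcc
Rps18 (chr17:33955646-33955675, minus strand): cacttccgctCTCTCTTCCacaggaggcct
With copies summed these 5 genes had log2 ratios of 0.87, 1.05, 0.92, 0.92 and 1.11 in dKO cells and of 0.67, 0.72, 1.02, 1.46 and 0.88 in lymphoma. The letters CTTCCG or CGGAAG, the same core on either strand, which ETS factors bind, were found in 45 of 75 member promoters and in 16.9% of all. The E-box letters CANNTG, which E proteins and other helix-loop-helix factors bind, were found in 49.3% and 72.3%, and the CACGTG form, which it includes and which MYC binds with its partner MAX, in 10.7% and 7.15%. TATAA in the 50 bases before the start was found in 6.67% and 4.93%. A match is a description of letters and no evidence of binding.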

How the data were processed

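RNA was sequenced from 20 samples in 5 groups, placed by their GEO labels. The authors purified mRNA, made strand-specific libraries with dUTP, sequenced them on an Illumina instrument, aligned reads to mm10 with OSA in Array Studio, estimated counts with RSEM and normalized them with DESeq. Their versions are unknown here, as no source states them. The table the authors deposited holds, as a signal, 1 mean of the normalized counts per gene and group, with 0 columns of values per sample, and, for 4 comparisons with control, fold changes, p-values and false discovery rates, which hold the study's own findings and were not used. The depth of each library is therefore unknown, the means have no error, and no test, interval or detection limit was computed.

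Gene IDs were matched to symbols for 37607 of 39179 genes. Genes with a mean of at least 10 in 1 group were kept. Log2 ratios have 1 normalized count added, and a ratio of at least 1.5-fold was counted. Coding sequences of members (GENCODE M21) were compared by blastn 2.17.0 with the annotated transcripts of genes in the deposited table. Rows with at least 95% identity over at least 80% of a coding sequence were summed into the member. A few such rows are genes that hold the sequence within a longer transcript, such as Wdr89 for Rplp2. Named genes are the 5 largest and 5 smallest ratios of each comparison among members of at least 100 in the higher group, second gene copies and their parents, stalk, 5S-particle and X-linked members, Rps6, Rpsa, and examples of the other lists. Some members that this rule names are not reported here. The members and lists were chosen with earlier results of these data known. The counting was tested on simulated data. Alternatives were other scalings, filters, pseudocounts, folds and denominators, and the summing of copies, which was chosen after seeing the data. Computation used Python 3.11.15 with pandas 2.3.3 and numpy 2.4.6, rank correlations scipy 1.17.1, and plots matplotlib 3.10.9.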

Additional observations from a re-analysis of the deposited data

How the results depend on the processing

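No paired analysis was possible because the table holds 1 mean per group and no value per sample. For the same reason leaving out a replicate was not run. Scaling by the median ratio of other genes, no filter and no pseudocount each kept 15 of 15 counts within 1.5 times and medians within 0.1. With no filter the lower count went from 13 to 15 in TFH cells and from 5 to 7 in lymphoma. Scaling to equal sums gave a median of 0.50 in lymphoma against control and of -0.17 against dKO cells. It took the higher count from 59 to 49 in dKO cells and from 54 to 36 in lymphoma. Under this scaling 22.3% of all genes were higher in lymphoma, and the share for dKO cells is not given here.

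Counts also moved with the filter, the fold and the copies. Most are given here without the share of all genes at the same setting. They show how far a setting moved a count and are no result about the members. In TFH cells the higher count was 0 with a minimum of 100, 0 without second gene copies, 4 at 5/4-fold and 0 at 2-fold, and the lower count 40 at 5/4-fold and 1 at 2-fold. In the libraries labelled Id3-/- the higher count was 0 with copies summed, 30 at 5/4-fold and 0 at 2-fold, and the lower count 0 with a minimum of 100 and 1 without second gene copies, with copies summed and at 2-fold. In dKO cells the higher count was 17 at 2-fold, and the lower count 1 with a minimum of 100, 0 with copies summed and 4 at 5/4-fold. In lymphoma the higher count was 23 at 2-fold, and the lower count 2 with a minimum of 100, 2 without second gene copies, 3 with copies summed and 8 at 5/4-fold. Against dKO cells lymphoma had 5 higher with copies summed, 23 at 5/4-fold and 7 at 2-fold, and 29 lower at 5/4-fold and 7 at 2-fold. The share of all counts, in the order control, TFH, labelled Id3-/-, dKO and lymphoma, was 7.40%, 6.10%, 8.69%, 12.0% and 11.7% with named pseudogenes added and 8.67%, 7.17%, 10.1%, 14.1% and 13.4% with copies summed.

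Summing copies, an alternative chosen after seeing the data, reversed 16 ratios of single members, moved 132 by more than 0.1 on the log2 scale and left 272 within that. The reversed log2 ratios became 0.029 for Rpl10l and 0.11 for Rps27 in TFH cells. In the libraries labelled Id3-/- they became 0.15 for Rps12 and 0.155 for Rps27. In dKO cells they became 0.66 for Rps12, 0.71 for Rps16 and 0.80 for Rps27. They became 1.42 for Rps12 and 0.85 for Rps7 in lymphoma against control. Against dKO cells they became -0.98 for Rps27, 0.76 for Rps12, -0.29 for Rps16, 0.12 for Rps7, -0.16 for Rpl13, -0.0036 for Rpl31 and 0.10 for Rps27a. The sum differs from the own row by construction, since counts of copies at 95% identity or more are added. How the reads were divided between these rows in each library was not tested. Since the means have no error, none of these differences can be set against the spread between replicates.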

Other observations

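Some ribosome genes outside the naming rule were measured too. Rack1, a small-subunit protein that binds signalling kinases, averaged 25009 normalized counts in control, 20808 in TFH, 31559 in the libraries labelled Id3-/-, 41038 in dKO and 66067 in lymphoma. Fau, a ubiquitin-like fusion with a small-subunit protein, averaged 3031, 2685, 3152, 4558 and 4383 in the same order. Rps3a1 averaged 33162, 27294, 42054, 23249 and 48459, with a log2 ratio of -0.51 in dKO cells, and its copies were not summed.

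Noncoding host genes of small nucleolar RNAs had 8 members above the filter, with medians of 0.38 in dKO cells and 0.28 in lymphoma, and 2 of 8 were at least 1.5-fold higher in each. Snhg15 averaged 171 normalized counts in control, 296 in dKO and 358 in lymphoma, and Snhg5 682, 566 and 644. In TFH cells all 8 log2 ratios were below 0, from Snhg15 at -0.08 to Snhg6 at -1.0048, beside 8069 of 15536 genes. Rows named as ribosomal protein pseudogenes, of which 104 of 239 passed the filter, had 52 higher and 10 lower in dKO cells, and 28 higher and 31 lower in lymphoma, with medians of 0.59 and -0.005. Over all genes 23.6% were higher and 19.0% lower in dKO cells, and 28.2% and 26.5% in lymphoma. The members had medians of 0.72 and 0.71 in the same comparisons.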
